A study of Mus musculus with 9 samples.

Results

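Peritoneal macrophages comprise large and small cells that carry different sets of genes, and 37 such identity genes were followed in LPS-treated cells given CPZ, ethanol or neither. The members were chosen by symbol, as genes known from resident large macrophages or from monocyte-derived small ones, with earlier results of these data known. All 37 were found once each among the 55335 genes of the deposited table. They are described here as 21 genes of large macrophages, 13 of small macrophages and 3 (Lyz1, Lyz2 and Pf4) that were not assigned to either. Bulk RNA-seq was run on 9 libraries of mouse peritoneal macrophages, each a pool of RNA from 3 samples. All cells were kept for 1 h in RPMI medium and then received lipopolysaccharide (LPS), the bacterial ligand of TLR4, at 1 µg/mL for 4 h. LPS+CPZ cells also received 100 µM of a compound labelled CPZ, LPS+EtOH cells also received 5% ethanol, and LPS cells received nothing further, with 3 libraries in each group. Strain, sex and age are not given in the sources used here, nor is it stated whether pooled samples were separate animals, so the spread behind each p-value is that between pools and may be technical. Libraries of unstimulated cells, or of either addition without LPS, were not analysed here.

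Large peritoneal macrophages are long-lived resident cells with high F4/80, whose identity depends on the transcription factor GATA6 and on retinoic acid. They are known for taking up dying cells, for clotting on injured surfaces through coagulation factors, and for a set of matrix and adhesion genes that other macrophages lack. Small peritoneal macrophages arise from blood monocytes, carry MHC class II and galactose- or mannose-binding lectins, and include the RELM-alpha-positive cells.

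Values are FPKM, fragment counts divided by transcript length and by the library's mapped fragments, so levels can be set against each other between genes. Total FPKM per library was 302126 to 363356, and depth in counts is unknown. Adult globin transcripts took 0.0452 to 0.0972% of it in LPS+CPZ, 0.172 to 0.221% in LPS+EtOH and 11.5 to 29.4% in LPS. Tests were limma's on log2(FPKM + 1) over 11721 genes, those that reached 1 FPKM in 3 or more libraries, called at a Benjamini-Hochberg adjusted p under 0.05, and log2 changes are given ± SE. The values of all genes shifted between groups: the median log2 change of the tested genes was -0.82 in LPS+EtOH against LPS, -0.33 in LPS+CPZ against LPS and 0.55 in LPS+CPZ against LPS+EtOH. After scaling by median-ratio size factors these medians were -0.38, -0.19 and 0.27. Fewer cells of a type and less RNA per cell cannot be told apart in bulk libraries.

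Levels of the members ran from 0 to 843 FPKM, reached by Saa3 in LPS replicate 1. Of the 37, 20 reached 10 FPKM in some library and 9 never reached 1 FPKM. By group mean, 7 members were highest in LPS+CPZ, 5 in LPS+EtOH and 25 in LPS, while 10 were lowest in LPS+CPZ, 23 in LPS+EtOH and 4 in LPS. Most members were thus lowest in LPS+EtOH, and the table as a whole leaned the same way. Of all tested genes 64.6% were called lower in LPS+EtOH than in LPS, and 48.4% lower in LPS+CPZ than in LPS. In LPS+CPZ 61.4% were called higher than in LPS+EtOH. Among the 21 large macrophage genes 17 were tested, and 8 of the 13 small macrophage genes were. Vsig4, Alox15 and Mrc1 entered the test through the LPS libraries alone and Tgfb2 through LPS+CPZ alone, so a difference of these 4 is in part fixed by the filter.

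**Figure D1:**
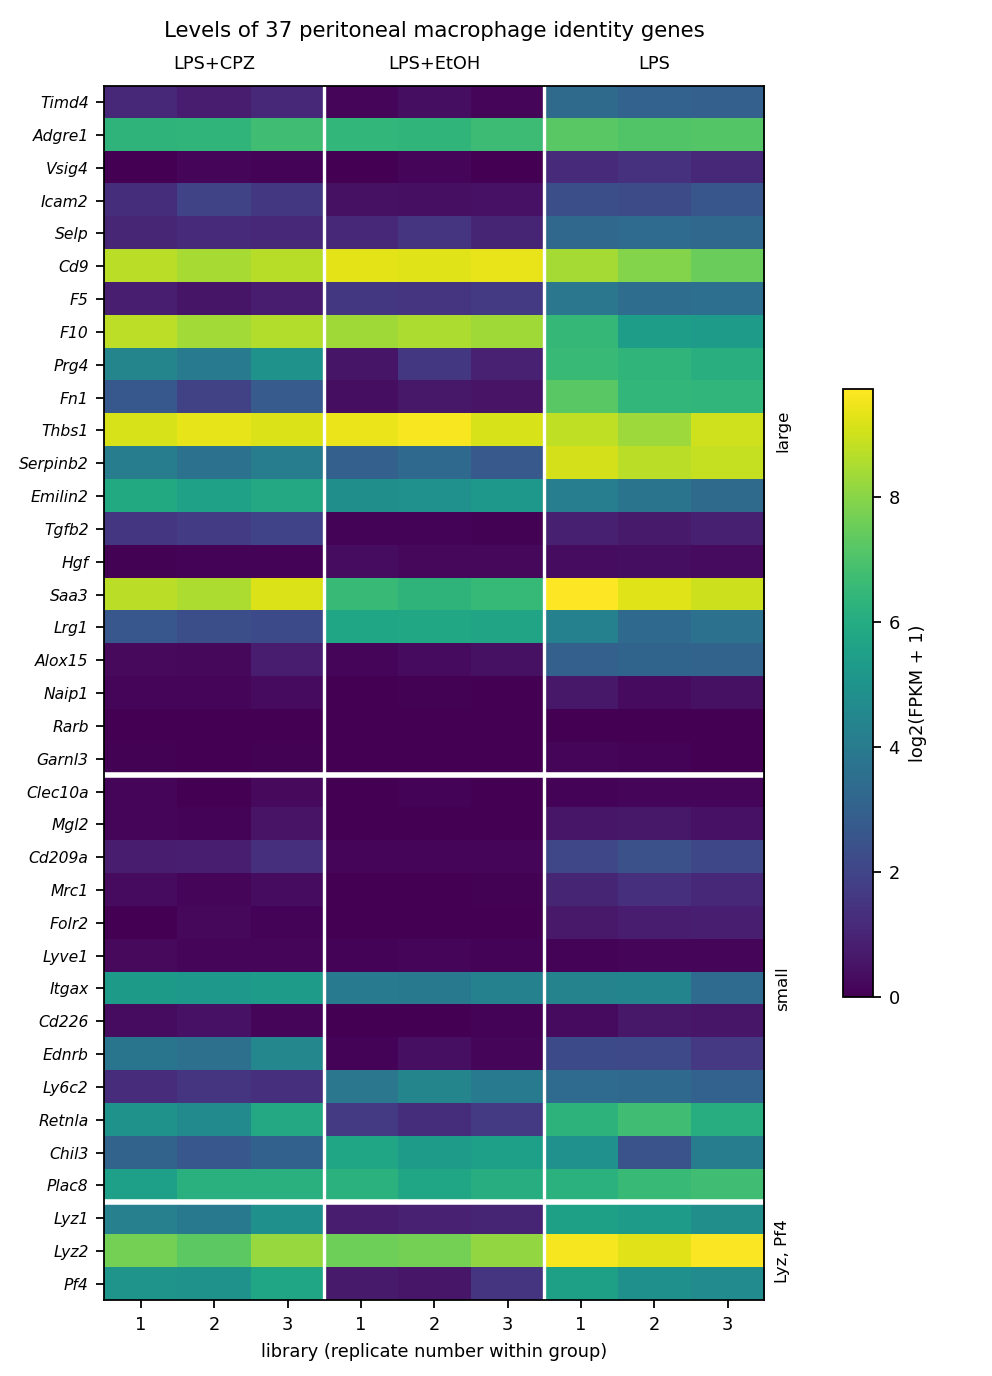
Heat map of log2(FPKM + 1) for the 37 genes (rows) in the 9 libraries (columns, LPS+CPZ, LPS+EtOH and LPS), with white lines between groups and between the large, the small and the unassigned genes. The LPS+EtOH columns are darkest for Prg4, Fn1, Retnla, Lyz1 and Pf4, whereas Cd9 and Thbs1 are bright in every library.

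Surface receptors of large macrophages were mostly lower with either addition. Timd4 encodes TIM-4, a phosphatidylserine receptor for apoptotic cells. It stood at 1.12, 0.652 and 1.16 FPKM in LPS+CPZ and 0.111, 0.292 and 0.083 in LPS+EtOH, against 9.28, 7.31 and 6.86 in LPS. The 3 groups did not overlap, and LPS+EtOH was the lowest. Timd4 fell in LPS+EtOH (log2 change -2.92 ± 0.15 against LPS, limma adjusted p = 6.52e-08) and in LPS+CPZ (-2.16 ± 0.15 against LPS, limma adjusted p = 9.65e-07), and was higher in LPS+CPZ than in LPS+EtOH (0.76 ± 0.15, limma adjusted p = 0.000830). Selp, the gene of the adhesion receptor P-selectin, stood at 1.06, 1.32 and 1.15 FPKM in LPS+CPZ and 1.15, 1.79 and 1.01 in LPS+EtOH, against 8.51, 9.59 and 8.52 in LPS. It fell in both groups, which overlapped each other (log2 changes -2.18 ± 0.14 and -2.10 ± 0.14 against LPS in LPS+CPZ and LPS+EtOH, limma adjusted p = 5.22e-07 and 2.16e-07). Vsig4, which encodes the complement receptor CRIg, behaved likewise, at 0.024 to 0.0848 FPKM in LPS+CPZ, 0.0205 to 0.103 in LPS+EtOH and 1.17 to 1.61 in LPS. Vsig4 entered the test through the LPS libraries alone, so its fall is in part fixed by the filter. Icam2, an adhesion ligand used to sort large macrophages, stood at 1.39, 2.95 and 2.0 FPKM in LPS+CPZ and 0.359, 0.320 and 0.386 in LPS+EtOH, against 4.09, 3.80 and 5.02 in LPS, again 3 groups without overlap. Its log2 change was -0.79 ± 0.17 in LPS+CPZ against LPS (limma adjusted p = 0.00189) and -1.96 ± 0.17 in LPS+EtOH against LPS (limma adjusted p = 1.36e-06).

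The defining receptor F4/80 changed much less. Its gene Adgre1 stood at 79.0, 81.8 and 105 FPKM in LPS+CPZ and 85.2, 81.9 and 99.8 in LPS+EtOH, against 150.1, 134 and 139 in LPS. All treated libraries lay below the LPS libraries and overlapped each other. The fall was -0.68 ± 0.14 in LPS+CPZ against LPS (limma adjusted p = 0.00140) and -0.66 ± 0.14 in LPS+EtOH against LPS (limma adjusted p = 0.00104). Under median-ratio scaling the change with ethanol was -0.01 (limma adjusted p = 0.957), and LPS+CPZ was then lower than LPS+EtOH (-0.49, limma adjusted p = 0.00919). Cd9, the gene of a tetraspanin, went the other way from the rest of the surface genes, with 422, 353 and 411 FPKM in LPS+CPZ and 646, 604 and 679 in LPS+EtOH, against 343, 238 and 182 in LPS. It rose by 0.68 ± 0.21 in LPS+CPZ and by 1.38 ± 0.21 in LPS+EtOH against LPS on the log2 scale (limma adjusted p = 0.0129 and 8.41e-05).

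Genes of coagulation, matrix and protease control fell in both treated groups or rose in both. Serpinb2 encodes PAI-2, an inhibitor of plasminogen activators. In the LPS libraries it was among the most abundant members. It stood at 16.1, 11.4 and 16.6 FPKM in LPS+CPZ and 6.83, 8.95 and 5.54 in LPS+EtOH, against 547, 417 and 463 in LPS. The group mean was 32.4-fold lower in LPS+CPZ and 66.9-fold lower in LPS+EtOH than in LPS (log2 changes -4.93 ± 0.19 and -5.89 ± 0.19, limma adjusted p = 5.82e-08 and 1.76e-08). Fn1, the fibronectin gene, stood at 5.39, 2.68 and 5.89 FPKM in LPS+CPZ and 0.299, 0.537 and 0.409 in LPS+EtOH, against 150.0, 86.2 and 84.2 in LPS. Its log2 change was -4.25 ± 0.26 in LPS+CPZ and -6.20 ± 0.26 in LPS+EtOH, the lowest value of any member against LPS (limma adjusted p = 5.12e-07 and 3.49e-08). Prg4, which encodes the lubricant proteoglycan lubricin, stood at 20.5, 15.6 and 30.0 FPKM in LPS+CPZ and 0.468, 1.97 and 0.874 in LPS+EtOH, against 95.7, 81.4 and 69.7 in LPS. With CPZ it kept a level 20.0-fold above that with ethanol, while both lay below LPS (log2 changes -1.89 ± 0.28 for LPS+CPZ and -5.36 ± 0.28 for LPS+EtOH, limma adjusted p = 0.000148 and 7.06e-08).

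The 2 coagulation factor genes moved in opposite directions. F5, the gene of the cofactor factor V, stood at 0.753, 0.463 and 0.682 FPKM in LPS+CPZ and 1.96, 1.86 and 2.16 in LPS+EtOH, against 13.5, 10.1 and 10.8 in LPS. It was the one large macrophage gene of this role that fell further with CPZ than with ethanol (LPS+CPZ against LPS+EtOH -0.88 ± 0.13, limma adjusted p = 0.000133). F10 encodes factor X, the protease that factor V assists once both are activated. It stood at 429, 329.7 and 389 FPKM in LPS+CPZ and 321, 370.4 and 318 in LPS+EtOH, against 87.3, 41.7 and 39.5 in LPS. Its rise was 2.83 ± 0.26 in LPS+CPZ and 2.66 ± 0.26 in LPS+EtOH against LPS (limma adjusted p = 6.44e-06 and 3.39e-06), and the treated groups overlapped each other. Emilin2, an extracellular matrix glycoprotein gene, stood at 59.1, 46.6 and 58.1 FPKM in LPS+CPZ and 27.5, 29.6 and 35.8 in LPS+EtOH, against 16.7, 12.5 and 9.15 in LPS, and rose in both (2.04 ± 0.20 and 1.24 ± 0.20, limma adjusted p = 8.77e-06 and 0.000134). Thbs1, the gene of the matrix protein thrombospondin-1, stood at 567, 660.0 and 586 FPKM in LPS+CPZ and 697, 782 and 558 in LPS+EtOH, against 438, 313 and 511 in LPS. Its changes of 0.55 ± 0.20 in LPS+CPZ and 0.70 ± 0.20 in LPS+EtOH against LPS passed the test (limma adjusted p = 0.0295 and 0.00646), but the first was 0.35 and was not called without LPS replicate 2 (limma adjusted p = 0.122). It was also not called without LPS+CPZ replicate 2 or 3, nor when all genes above 0 were tested.

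The 3 tested growth factor and acute-phase genes all differed between LPS+CPZ and LPS+EtOH. Tgfb2, which encodes the growth factor TGF-beta 2, stood at 1.91, 2.20 and 2.92 FPKM in LPS+CPZ and 0.0546, 0.0617 and 0.0497 in LPS+EtOH, against 0.799, 0.645 and 0.785 in LPS. It rose with CPZ (0.93 ± 0.12 against LPS, limma adjusted p = 5.10e-05) and fell with ethanol (-0.72 ± 0.12 against LPS, limma adjusted p = 0.000151), and the 3 groups did not overlap. Tgfb2 entered the test through LPS+CPZ alone, so its higher level there is in part fixed by the filter. Saa3, the gene of an inducible serum amyloid A protein, stood at 419.9, 371 and 598 FPKM in LPS+CPZ and 95.8, 80.0 and 89.6 in LPS+EtOH, against 843, 602 and 507 in LPS. It fell with ethanol (-2.83 ± 0.22 against LPS, limma adjusted p = 6.11e-07). With CPZ its libraries overlapped those of LPS (-0.49 ± 0.22, limma adjusted p = 0.0691), a difference that was called without LPS+CPZ replicate 3 (-0.69) or without LPS replicate 3 (-0.65). Lrg1, which encodes a leucine-rich secreted glycoprotein, was highest in LPS+EtOH and lowest in LPS+CPZ, with 5.20, 4.02 and 3.55 FPKM in LPS+CPZ and 50.9, 53.7 and 50.7 in LPS+EtOH, against 18.4, 8.97 and 11.2 in LPS. It fell with CPZ (-1.35 ± 0.22 against LPS, limma adjusted p = 0.000269) and rose with ethanol (1.99 ± 0.22 against LPS, limma adjusted p = 7.16e-06). Neutrophils also express Lrg1, and neutrophil markers had the highest sum in LPS+EtOH, as given further on. Hgf, the hepatocyte growth factor gene, was under the filter, with means of 0.0589 FPKM in LPS+CPZ, 0.195 in LPS+EtOH and 0.255 in LPS.

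Among the intracellular genes Alox15 alone was tested. It encodes 12/15-lipoxygenase, which oxidizes polyunsaturated fatty acids, and stood at 0.181, 0.162 and 0.729 FPKM in LPS+CPZ and 0.0867, 0.228 and 0.350 in LPS+EtOH, against 6.96, 7.77 and 7.60 in LPS. It fell in both (log2 changes -2.66 ± 0.16 and -2.79 ± 0.16 against LPS, limma adjusted p = 3.85e-07 and 1.06e-07), and the treated groups overlapped each other. Alox15 entered the test through the LPS libraries alone, so its fall is in part fixed by the filter. Naip1, an inflammasome sensor gene of the NAIP family, stood at 0.126 to 0.220 FPKM in LPS+CPZ, 0.00476 to 0.0281 in LPS+EtOH and 0.209 to 0.525 in LPS. Of its 50-base transcript windows 32.5% also occur in other genes, so its value is uncertain. Rarb, the retinoic acid receptor beta gene, was listed at 0 in the 6 treated libraries and did not exceed 0.0103 FPKM in LPS, and Garnl3 did not exceed 0.0861 FPKM in any library.

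Taking the list by count in LPS+EtOH against LPS, 12 of the 21 large macrophage genes were called lower and Cd9, F10, Thbs1, Emilin2 and Lrg1 were called higher. Leaving out Vsig4, Alox15 and Tgfb2, which entered the test through 1 group alone, 9 were lower and 5 higher. Of all tested genes 64.6% were called lower and 19.0% higher, and 83.6% in either direction, and 17 of the 21 members were tested. Libraries of the 2 groups did not overlap for 20 of the 21 members and for 84.8% of all tested genes. The sizes spread widely, from -6.20 to 2.66. Falls of -2 or less were called for 8 of the 21 members, Alox15 included, and for 11.7% of all tested genes. The limit of 2 was set after the values were seen. F10 alone had a called rise of 2 or more, against 2.54% of all tested genes. In LPS+CPZ against LPS, 11 of the 21 were called lower and 5 higher, against backgrounds of 48.4% and 20.7%, or 69.2% in either direction. Without Vsig4, Alox15 and Tgfb2, 9 were lower and 4 higher. For 18 of the 21 the libraries did not overlap, against 72.9% of all tested genes. Here Tgfb2 stood among the higher genes in place of Lrg1. Of the 21, 6 had falls of -2 or less, Alox15 again included, against 2.68% of all tested genes. Called rises of 2 or more were those of F10 and Emilin2, against 2.84%. The 2 comparisons share the LPS libraries. Under median-ratio scaling 5 of the 21 were higher and 11 lower in each comparison. The background was then 24.4% higher and 40.8% lower in LPS+CPZ against LPS, and 29.9% higher and 51.2% lower in LPS+EtOH against LPS, and no called member of the large list changed direction.

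**Figure D2:**
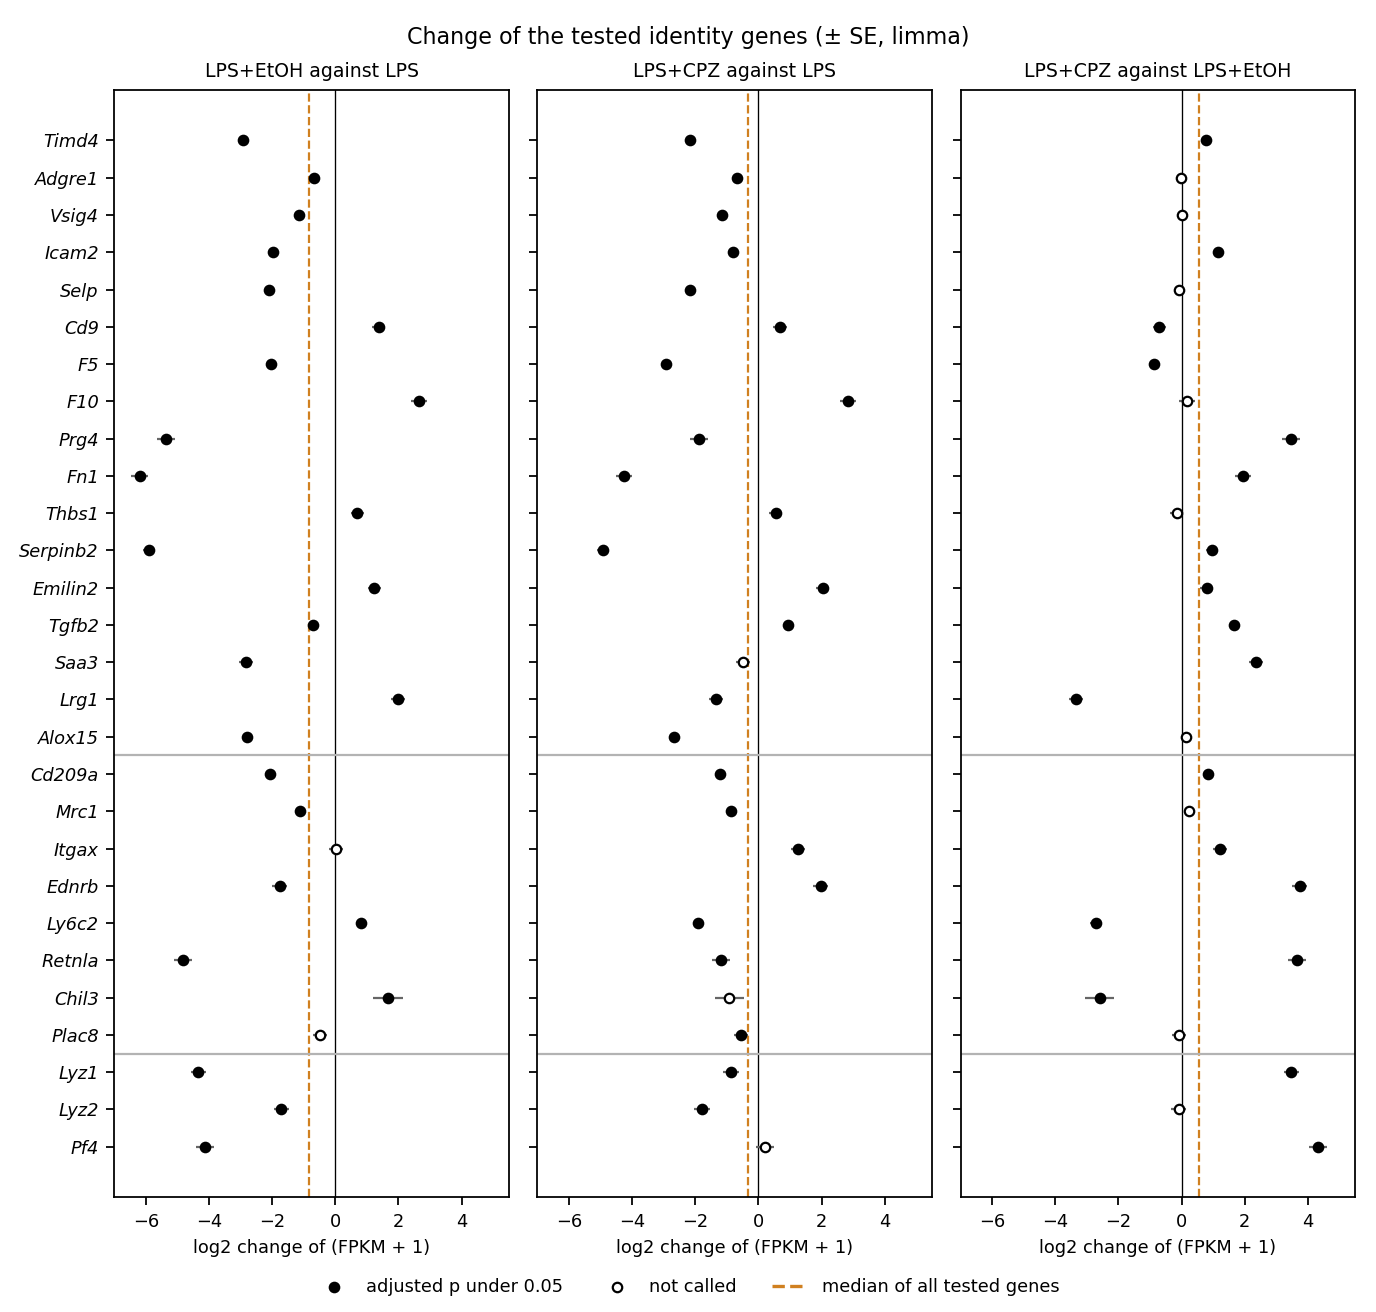
Log2 changes of FPKM + 1 (± SE, limma) of the 28 tested members in LPS+EtOH against LPS, LPS+CPZ against LPS and LPS+CPZ against LPS+EtOH. Filled points passed the test, open points did not, and the dashed line is the median of all tested genes (-0.82, -0.33 and 0.55); Fn1, Serpinb2, Prg4 and Retnla lie far left of it in the first panel, and F10 right of it in the first 2.

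The lectins of small macrophages were weakly expressed throughout. Cd209a, a homologue of human DC-SIGN, stood at 0.704, 0.770 and 1.48 FPKM in LPS+CPZ and 0.0961, 0.102 and 0.0831 in LPS+EtOH, against 3.18, 4.34 and 3.26 in LPS. Its groups did not overlap, and it fell in both (log2 changes -1.22 ± 0.15 and -2.06 ± 0.15 against LPS, limma adjusted p = 5.53e-05 and 5.03e-07). Mrc1, which encodes the mannose receptor CD206, stood at 0.209, 0.105 and 0.265 FPKM in LPS+CPZ and 0.00239, 0.00295 and 0.0343 in LPS+EtOH, against 1.03, 1.46 and 1.09 in LPS (-0.88 ± 0.10 and -1.11 ± 0.10 against LPS, limma adjusted p = 2.69e-05 and 1.73e-06). Mrc1 entered the test through the LPS libraries alone, so its fall is in part fixed by the filter. LPS+CPZ exceeded LPS+EtOH in every library, yet that difference of 0.23 ± 0.10 missed the threshold (limma adjusted p = 0.0525) and passed it with a pseudocount of 0.1 (1.34) and as TPM (0.59). The galactose lectin genes Clec10a and Mgl2 were under the filter and share 10.6% and 16.5% of their transcript windows with other genes, mostly with each other. Mgl2 stood at 0.115, 0.0676 and 0.414 FPKM in LPS+CPZ, was listed at 0 in all LPS+EtOH libraries and stood at 0.497, 0.558 and 0.403 in LPS. Clec10a did not exceed 0.186 FPKM in LPS+CPZ, 0.0645 in LPS+EtOH and 0.129 in LPS.

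Among the other surface proteins Ednrb had the widest span. It encodes the endothelin receptor B and stood at 12.8, 11.1 and 21.7 FPKM in LPS+CPZ and 0.0801, 0.325 and 0.10 in LPS+EtOH, against 3.55, 3.47 and 2.03 in LPS. The level with CPZ was 5.04-fold that in LPS (log2 change 1.98 ± 0.24, limma adjusted p = 3.88e-05), and it fell with ethanol (-1.76 ± 0.24 against LPS, limma adjusted p = 3.84e-05). Like Tgfb2, it was higher than LPS with CPZ and lower than LPS with ethanol. Itgax, the gene of the integrin CD11c, stood at 38.8, 35.0 and 40.8 FPKM in LPS+CPZ and 14.9, 14.4 and 18.2 in LPS+EtOH, against 19.3, 19.8 and 9.59 in LPS. It rose with CPZ (1.25 ± 0.23 against LPS, limma adjusted p = 0.000712), and its libraries with ethanol overlapped LPS (0.03 ± 0.23, limma adjusted p = 0.922), a difference that was called as a rise under median-ratio scaling (0.65) and was -0.29 without LPS replicate 3. Ly6c2, which encodes the monocyte antigen Ly-6C, stood at 1.33, 1.83 and 1.56 FPKM in LPS+CPZ and 13.4, 20.5 and 14.8 in LPS+EtOH, against 9.66, 9.01 and 7.36 in LPS. It fell with CPZ (-1.91 ± 0.17 against LPS, limma adjusted p = 4.39e-06) and rose with ethanol (0.82 ± 0.17 against LPS, limma adjusted p = 0.000816; 1.43 under median-ratio scaling). Ly6c2 shares 13.1% of its transcript windows with other genes, mostly Ly6c1.

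3 more surface genes of small macrophages stayed under 1 FPKM. Folr2, the folate receptor beta gene, stood at 0.0229, 0.169 and 0.0812 FPKM in LPS+CPZ, was listed at 0 in LPS+EtOH and stood at 0.575, 0.698 and 0.756 in LPS. Cd226, an adhesion receptor gene that marks small macrophages, stood at 0.239, 0.382 and 0.11 FPKM in LPS+CPZ and 0.0185, 0.0251 and 0.0583 in LPS+EtOH, against 0.232, 0.552 and 0.502 in LPS. Lyve1, a hyaluronan receptor gene, ranged from 0.0961 to 0.196 FPKM in LPS+CPZ, 0.0773 to 0.134 in LPS+EtOH and 0.0666 to 0.139 in LPS, with all groups overlapping.

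Secreted and intracellular genes of small macrophages each had a pattern of their own. Retnla encodes RELM-alpha, a secreted protein of alternatively activated macrophages. It stood at 31.2, 24.3 and 57.8 FPKM in LPS+CPZ and 2.18, 1.43 and 2.12 in LPS+EtOH, against 76.7, 106 and 65.6 in LPS. The groups did not overlap, the ethanol libraries were the lowest by a wide margin, and the log2 change was -1.18 ± 0.28 in LPS+CPZ and -4.83 ± 0.28 in LPS+EtOH against LPS (limma adjusted p = 0.00374 and 1.27e-07). Chil3, the gene of the chitinase-like protein Ym1, stood at 7.51, 5.23 and 7.21 FPKM in LPS+CPZ and 52.3, 39.7 and 44.0 in LPS+EtOH, against 29.4, 4.68 and 16.1 in LPS. It rose with ethanol (1.68 ± 0.47 against LPS, limma adjusted p = 0.00598), by 1.01 without LPS replicate 2. With CPZ the change of -0.92 ± 0.47 was not called (limma adjusted p = 0.101), and without LPS replicate 2 it was -1.59 and called. Of the Chil3 transcript windows 29.4% also occur in other genes, most of them in Chil4. Plac8, a cysteine-rich protein gene of monocytes, stood at 43.5, 70.8 and 71.6 FPKM in LPS+CPZ and 73.6, 53.4 and 65.3 in LPS+EtOH, against 72.9, 91.7 and 106 in LPS. Its fall of -0.55 ± 0.22 in LPS+CPZ (limma adjusted p = 0.0404) was -0.32 without LPS+CPZ replicate 1 and was not called there. The call was also lost without LPS+EtOH replicate 3, LPS replicate 2 or LPS replicate 3, under median-ratio scaling and when all genes above 0 were tested.

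By count, 4 of the 13 small macrophage genes were called lower in LPS+EtOH than in LPS (Cd209a, Mrc1, Ednrb and Retnla) and Ly6c2 and Chil3 were called higher. Without Mrc1, which entered the test through the LPS libraries alone, 3 were lower. When every gene above 0 was tested, 7 were called lower, and 2 when the filter was 5 FPKM. In LPS+CPZ against LPS 5 were lower (Cd209a, Mrc1, Ly6c2, Retnla and Plac8) and Itgax and Ednrb were higher, with 3 lower under the 5 FPKM filter. Leaving out Mrc1, 4 were lower in that comparison. Of the 13 genes 8 were tested, and the background is that given with the large list.

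Large and small genes were then set against each other. The median log2 change over all 21 large genes was -0.72 in LPS+EtOH against LPS, and that over all 13 small genes was -0.48, a difference of -0.24. In LPS+CPZ against LPS the medians were -0.68 and -0.55, a difference of -0.12. Leaving out 1 library at a time, the first difference ranged from -0.30 to -0.14 and the second from -0.28 to 0.04. No SD was computed for these differences themselves. The lists include 9 members under 1 FPKM, whose changes the pseudocount of 1 pulls toward 0. With a pseudocount of 0.1 the ethanol medians were -2.44 for the large list and -1.93 for the small list. A second measure, the gap between the median levels of the lists within a library, moved further. The large median exceeded the small median by 0.77, 1.06 and 0.66 log2 units in LPS+CPZ and 0.44, 1.30 and 0.79 in LPS+EtOH, against 1.80, 1.24 and 1.75 in LPS. The gap was smaller in every LPS+CPZ library than in any LPS library, while LPS+EtOH replicate 2 overlapped LPS. Its SDs within the 2 groups of a comparison, combined as the root of their summed squares, gave 0.53 for LPS+EtOH against LPS. For LPS+CPZ against LPS they gave 0.37. The small median itself was 0.77 to 1.31 in LPS+CPZ and 0.11 to 0.18 in LPS+EtOH, against 1.60 to 2.16 in LPS. So close to 0 it has little room to fall, and the gap can narrow when both lists fall. It therefore does not show that large genes lost more than small ones. No p is given for either measure because the members were chosen with results known.

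The unassigned members gave the sharpest contrast between near copies. Lyz2 encodes the main macrophage lysozyme and Lyz1 a close copy known from intestinal Paneth cells. Lyz1 stood at 18, 14.3 and 28.7 FPKM in LPS+CPZ and 0.668, 0.873 and 1.00 in LPS+EtOH, against 44.6, 39.9 and 27.0 in LPS. Lyz2 stood at 205, 153 and 294 FPKM in LPS+CPZ and 188, 207 and 283 in LPS+EtOH, against 761, 624 and 813 in LPS. The treated groups overlapped for Lyz2 and were far apart for Lyz1. Lyz1 was 8.80, 9.30 and 9.77% of Lyz2 in LPS+CPZ and 0.355, 0.422 and 0.353% in LPS+EtOH, against 5.87, 6.40 and 3.32% in LPS, a ratio that no scaling of a library changes. LPS+CPZ against LPS+EtOH gave 3.48 ± 0.24 for Lyz1 (limma adjusted p = 1.27e-06) and -0.09 ± 0.24 for Lyz2 (limma adjusted p = 0.754). Lyz2 fell in both groups against LPS (-1.79 ± 0.24 in LPS+CPZ and -1.71 ± 0.24 in LPS+EtOH, limma adjusted p = 7.95e-05 and 5.22e-05; -1.05 in the second under median-ratio scaling). Lyz1 shares 16.1% of its 50-base transcript windows with Lyz2, so fragments there could have been given to either gene.

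Pf4, the gene of the chemokine platelet factor 4, followed the same order as Lyz1 between the treated groups. It stood at 31.8, 30.1 and 51.9 FPKM in LPS+CPZ and 0.611, 0.516 and 1.76 in LPS+EtOH, against 45.0, 28.8 and 25.1 in LPS. It fell with ethanol (-4.12 ± 0.29 against LPS, limma adjusted p = 3.44e-07), and the CPZ libraries overlapped those of LPS (0.20 ± 0.29, limma adjusted p = 0.561). Platelets also hold Pf4, and 6 other platelet genes summed to 0.969 to 1.27 FPKM in LPS+CPZ, 0.426 to 0.525 in LPS+EtOH and 0.763 to 6.14 in LPS.

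The promoters of 5 members are shown because these genes differed most between LPS+CPZ and LPS+EtOH or, for Lyz2, because its close copy did. They are RefSeq sequences of build GRCm38.p6, from 250 bases before to 50 bases after the start of the gene, 5′ to 3′ on the strand of the gene. Capitals mark the letters AGATAA, which GATA factors can bind, or AGGTCA, an element bound by nuclear receptors such as those for retinoic acid, searched on both strands. Prg4, which differed by as much, has no entry in the table used.
Pf4 promoter, chr5:90772185-90772484, plus strand: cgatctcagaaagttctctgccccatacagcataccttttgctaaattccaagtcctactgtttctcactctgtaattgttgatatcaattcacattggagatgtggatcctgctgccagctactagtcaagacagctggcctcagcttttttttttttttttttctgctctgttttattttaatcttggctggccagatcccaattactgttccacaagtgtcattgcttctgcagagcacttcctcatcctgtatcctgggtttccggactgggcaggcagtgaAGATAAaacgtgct
Ednrb promoter, chr14:103843652-103843951, minus strand: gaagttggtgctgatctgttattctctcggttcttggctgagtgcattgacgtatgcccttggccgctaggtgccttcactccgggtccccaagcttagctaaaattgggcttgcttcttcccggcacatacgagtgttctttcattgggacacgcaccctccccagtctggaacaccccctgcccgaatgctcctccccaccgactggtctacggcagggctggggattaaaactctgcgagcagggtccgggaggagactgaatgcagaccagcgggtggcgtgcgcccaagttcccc
Retnla promoter, chr16:48842359-48842658, plus strand: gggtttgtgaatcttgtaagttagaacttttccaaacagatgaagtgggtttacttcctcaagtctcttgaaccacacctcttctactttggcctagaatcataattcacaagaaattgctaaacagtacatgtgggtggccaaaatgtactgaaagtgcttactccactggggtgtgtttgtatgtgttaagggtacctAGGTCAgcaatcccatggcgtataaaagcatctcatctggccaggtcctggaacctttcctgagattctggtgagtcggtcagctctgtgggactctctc
Lyz1 promoter, chr10:117292819-117293118, minus strand: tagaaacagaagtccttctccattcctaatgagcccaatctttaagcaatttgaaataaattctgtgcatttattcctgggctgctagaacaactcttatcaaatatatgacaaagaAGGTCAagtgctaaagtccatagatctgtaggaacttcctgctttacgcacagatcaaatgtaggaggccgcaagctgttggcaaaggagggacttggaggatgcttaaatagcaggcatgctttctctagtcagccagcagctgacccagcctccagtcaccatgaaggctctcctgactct
Lyz2 promoter, chr10:117282223-117282522, minus strand: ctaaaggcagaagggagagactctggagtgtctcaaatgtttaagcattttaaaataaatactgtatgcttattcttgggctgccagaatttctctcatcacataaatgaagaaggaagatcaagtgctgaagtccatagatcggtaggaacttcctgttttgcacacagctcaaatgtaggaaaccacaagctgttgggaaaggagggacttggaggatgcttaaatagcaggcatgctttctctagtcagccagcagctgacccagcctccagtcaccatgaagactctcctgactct
The Lyz1 and Lyz2 promoters are identical at 249 of 302 aligned positions (82.5%), and AGGTCA lies in that of Lyz1 and not in that of Lyz2. The table held 35 promoters for 28 of the 37 members, some with more than 1 start. AGATAA was present in 3 of 19 promoters of large macrophage genes (Saa3, Serpinb2 and Tgfb2), in 2 of 13 of small macrophage genes (Chil3 and Itgax), in that of Pf4 and in 11.2% of all 32851 promoters. AGGTCA was present in 4 of 19 (F5, F10, Selp and Timd4) and in 1 of 13 (Retnla), against 16.3% of all promoters. These shares describe letters in a short window and say nothing of binding.

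LPS+CPZ was compared directly with LPS+EtOH to see where the 2 additions diverge. Of the 21 large macrophage genes 8 were higher with CPZ (Timd4, Icam2, Prg4, Fn1, Serpinb2, Emilin2, Tgfb2 and Saa3) and Cd9, F5 and Lrg1 were lower. Without Tgfb2, which entered the test through LPS+CPZ alone, 7 were higher. Of the 13 small ones Cd209a, Itgax, Ednrb and Retnla were higher and Ly6c2 and Chil3 were lower. The background was 61.4% of tested genes higher and 15.2% lower, or 76.6% in either direction, and the lists hold 17 and 8 tested genes. For 14 of the 21 large and 10 of the 13 small genes the libraries did not overlap, against 79.0% of all tested genes. Called differences of 2 or more were those of Prg4 and Saa3 in the large list and of Ednrb and Retnla in the small list, against 2.93% of tested genes. Called differences of -2 or less were those of Lrg1, Ly6c2 and Chil3, against 1.71%. The largest differences were those of Pf4 (4.32 ± 0.29), Ednrb (3.75 ± 0.24), Retnla (3.65 ± 0.28), Lyz1 (3.48 ± 0.24) and Prg4 (3.47 ± 0.28), with limma adjusted p from 7.77e-07 to 2.65e-06. Each was higher in all 3 LPS+CPZ libraries than in any LPS+EtOH library. Lower with CPZ were Lrg1 (-3.34 ± 0.22, limma adjusted p = 8.41e-07), Ly6c2 (-2.72 ± 0.17, limma adjusted p = 6.10e-07) and Chil3 (-2.60 ± 0.47, limma adjusted p = 0.000479). Under median-ratio scaling Serpinb2 (0.52) and Emilin2 (0.33) were no longer called, and Adgre1 (-0.49) and Thbs1 (-0.64) were called lower, which made 6 higher and 5 lower in the large list, against 45.1% and 24.4% of all tested genes.

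**Figure D3:**
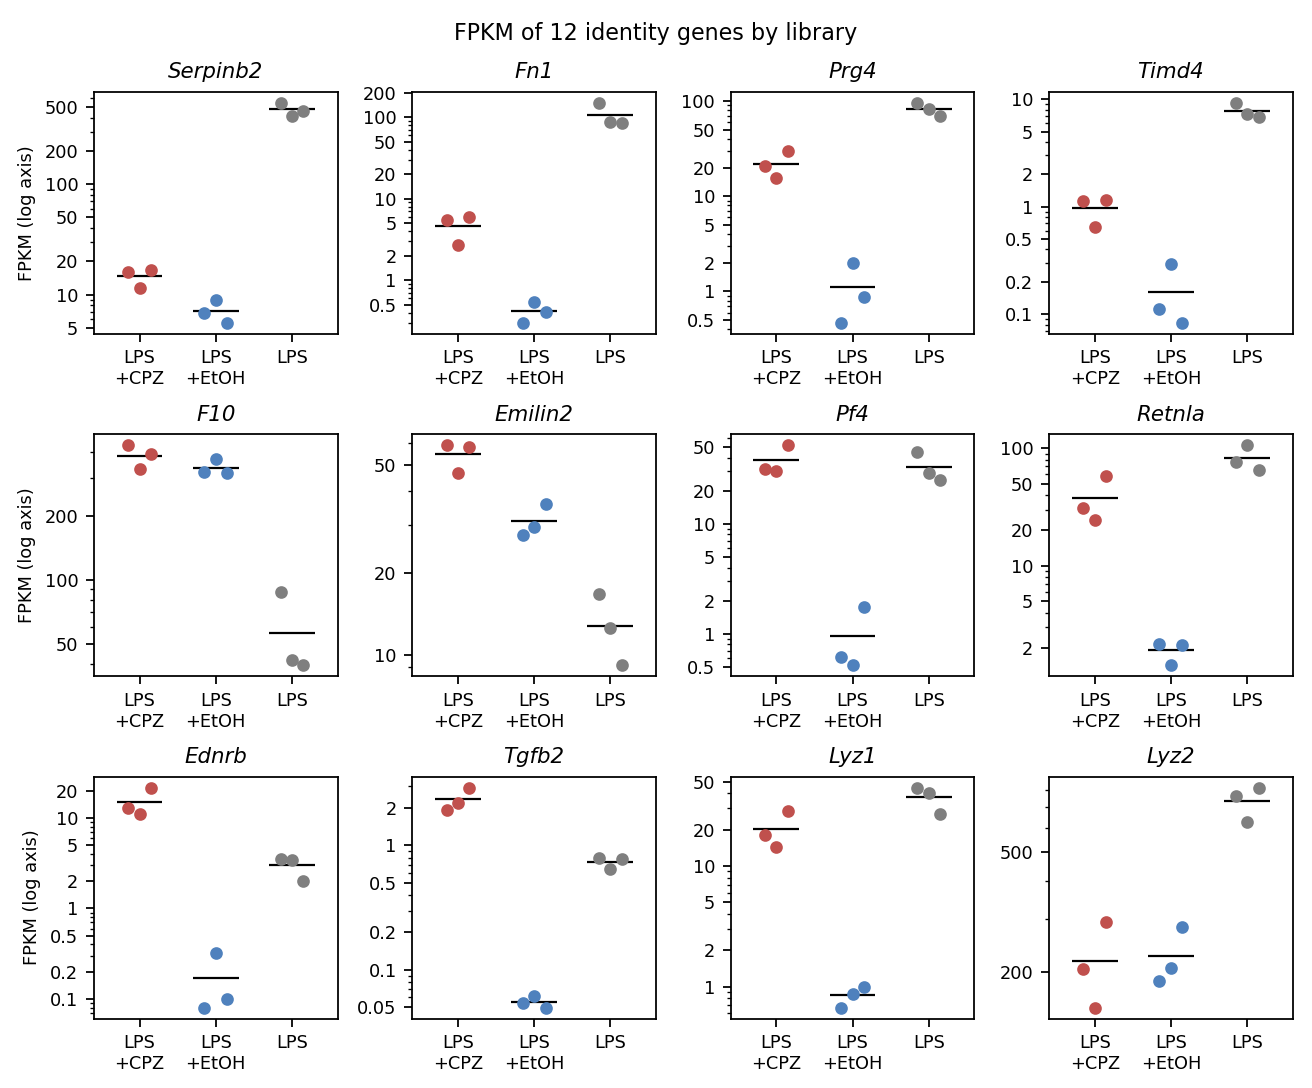
FPKM on log axes for 12 members, with 1 point per library and a line at the mean of each group of 3 (LPS+CPZ, LPS+EtOH and LPS). Serpinb2 lies below LPS in both treated groups, F10 and Emilin2 lie above it, Pf4, Retnla and Lyz1 drop mainly in LPS+EtOH, Ednrb and Tgfb2 are highest in LPS+CPZ, and Lyz2 overlaps between the treated groups.

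Transcription factors known from peritoneal macrophages were read from the same fit. Gata6 was under the filter, at 0.378, 0.146 and 0.401 FPKM in LPS+CPZ and 0.0643, 0.0143 and 0.0227 in LPS+EtOH, against 0.457, 0.274 and 0.242 in LPS, with the ethanol libraries lowest. Of 16 such regulators 15 were tested, of which 3 were higher and 7 lower in LPS+CPZ and 6 higher and 7 lower in LPS+EtOH, each against LPS. Of all tested genes 20.7% were higher and 48.4% lower in the first of these comparisons, and 19.0% and 64.6% in the second. Irf4, a factor of alternatively activated macrophages and of lymphocytes, stood at 8.68, 10.4 and 8.49 FPKM in LPS+CPZ and 9.91, 9.49 and 5.77 in LPS+EtOH, against 171, 334 and 248 in LPS (log2 changes -4.58 and -4.73, limma adjusted p = 1.98e-07 and 7.11e-08). Rxrb, a partner of the retinoic acid receptors, stood at 4.32, 4.87 and 4.10 FPKM in LPS+CPZ and 1.57, 1.39 and 1.26 in LPS+EtOH, against 7.12, 7.22 and 6.31 in LPS (-0.54 and -1.71, limma adjusted p = 0.00147 and 2.20e-07). The other retinoid receptor genes of the list, named after their values were seen, did not follow it. Rxra averaged 11.5 FPKM in LPS+CPZ and 9.66 in LPS+EtOH, against 2.97 in LPS, and rose in both (1.63 ± 0.18 and 1.43 ± 0.18, limma adjusted p = 2.20e-05 and 2.24e-05). Rara averaged 3.90 FPKM in LPS+CPZ and 19.9 in LPS+EtOH, against 23.3 in LPS. It fell with CPZ (-2.32 ± 0.14, limma adjusted p = 3.81e-07) and was not called with ethanol (-0.22 ± 0.14, limma adjusted p = 0.162; 0.42 and called higher under median-ratio scaling).

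Of 8 receptors and MHC class II genes used to sort the subsets, 6 were tested. The MHC class II genes H2-Aa, H2-Ab1 and H2-Eb1 and the invariant chain gene Cd74 fell in both comparisons against LPS. Their log2 changes ran from -1.77 (H2-Eb1) to -1.31 (Cd74) in LPS+CPZ and from -3.60 (H2-Aa) to -2.63 (Cd74) in LPS+EtOH. B cells carry these genes too, and B cell markers fell as well. Ccr2, the chemokine receptor of monocytes, was under the filter, at 0.957, 1.74 and 0.654 FPKM in LPS+CPZ and 0.0482, 0.0348 and 0.0376 in LPS+EtOH, against 0.814, 0.959 and 1.58 in LPS. Csf1r, the receptor for the macrophage growth factor M-CSF, stood at 44.3, 27.0 and 39.4 FPKM in LPS+CPZ and 18.3, 14.2 and 25.6 in LPS+EtOH, against 30.4, 21 and 23.4 in LPS. Neither of its changes against LPS was called (0.54 ± 0.24 in LPS+CPZ and -0.37 ± 0.24 in LPS+EtOH, limma adjusted p = 0.0649 and 0.167), although the first was called as a rise under median-ratio scaling (0.71). Itgam, which encodes CD11b, rose in both (0.71 ± 0.21 and 0.66 ± 0.21, limma adjusted p = 0.0123 and 0.0133). Its LPS+EtOH libraries, at 66.2 to 96.0 FPKM, overlapped those of LPS, at 38.8 to 66.4. The entry with the highest mean was used, and a second entry of the same symbol was not examined.

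Markers of other cells moved with the groups. Sums of 13 neutrophil markers were 7613 to 8399 FPKM in LPS+CPZ, 47198 to 52005 in LPS+EtOH and 4526 to 6313 in LPS. With ethanol 12 of the 13 rose against LPS, as did 19.0% of all tested genes. With CPZ 5 rose and 3 fell against LPS, as did 20.7% and 48.4% of all tested genes. Most of the sum in LPS+EtOH was S100a9, at 31083 to 35025 FPKM, against 3115 to 3313 in LPS+CPZ and 2759 to 3828 in LPS. Ly6g had another order, at 239 to 299 FPKM in LPS+CPZ, 147 to 169.8 in LPS+EtOH and 11.8 to 21.2 in LPS. Lrg1, Chil3 and Ly6c2, the members that were higher with ethanol and lower or uncalled with CPZ, were highest in LPS+EtOH, as was the neutrophil sum. The monocyte sum, given at the end, was highest in LPS+EtOH too. Dendritic cell markers, relevant to Itgax and Cd209a, summed to 56.3 to 104 FPKM in LPS+CPZ, 10.6 to 15.5 in LPS+EtOH and 113 to 177 in LPS, with Clec9a, Siglech and Itgae under 0.5 FPKM in every library. Nearly all of that sum was Ccr7, at 51.3 to 98.2 FPKM in LPS+CPZ, 9.52 to 14.3 in LPS+EtOH and 105 to 167 in LPS. Xcr1 had another order, at 2.58 to 3.81 FPKM in LPS+CPZ, 0.591 to 0.776 in LPS+EtOH and 0.866 to 0.941 in LPS. B cell markers summed to 149 to 198 FPKM in LPS+CPZ, 37.8 to 60.6 in LPS+EtOH and 507 to 757 in LPS, and all 10 fell in both comparisons against LPS, where 48.4% of all tested genes fell with CPZ and 64.6% with ethanol. Macrophage markers other than members summed to 1482 to 1759 FPKM in LPS+CPZ, 2954 to 3416 in LPS+EtOH and 1305 to 1616 in LPS. With ethanol 3 of the 6 tested were higher than in LPS (Cd14, Cd68 and Mpeg1), 2 were lower and Csf1r was not called. Of all tested genes 19.0% were higher and 64.6% lower there. Cd14 made up most of the sum in LPS+EtOH, at 1924 to 2333 FPKM, against 392 to 425 in LPS+CPZ and 743 to 1030 in LPS. The 2 lower ones with ethanol were Ctss, at 28.2 to 43.7 FPKM in LPS+EtOH, against 194 to 239.7 in LPS, and Fcgr1, at 0.0713 to 0.182 FPKM in LPS+EtOH, against 3.99 to 8.52 in LPS. With CPZ 2 of the 6 were higher than in LPS and 3 lower, as were 20.7% and 48.4% of all tested genes. The 6 endothelial markers summed to 5.88 to 7.29 FPKM in LPS+CPZ, 6.12 to 7.05 in LPS+EtOH and 6.57 to 10 in LPS, most of it Pecam1, with Cdh5, Kdr, Tek and Egfl7 under 0.5 FPKM in every library. The 8 mesothelial and fibroblast markers summed to 2.5 to 2.97 FPKM in LPS+CPZ, 2.66 to 3.77 in LPS+EtOH and 1.25 to 2.35 in LPS. Of these Col1a1 stood at 1.83 to 2.49 FPKM in LPS+CPZ, 1.84 to 2.16 in LPS+EtOH and 0.0961 to 0.147 in LPS, while Msln, Upk3b and Wt1 were under 0.5 FPKM in every library. Single markers in this paragraph were named after their values were seen. What part other cells had in the changes of the members was not tested.

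**Figure D4:**
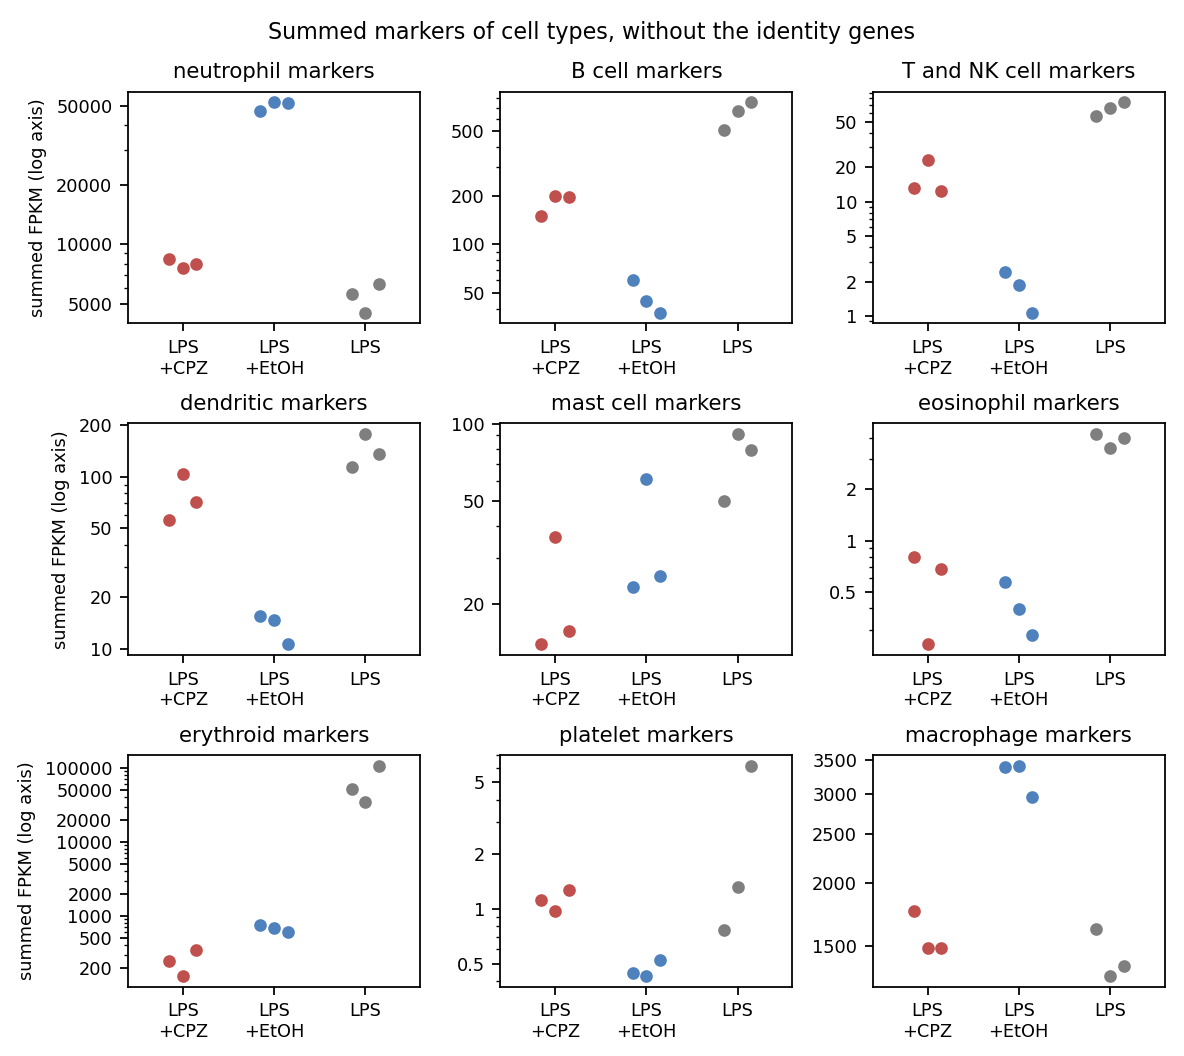
Summed FPKM (log axes) of marker lists of 9 cell types, without the identity genes, with 1 point per library in LPS+CPZ, LPS+EtOH and LPS. The neutrophil sum is highest in LPS+EtOH, where most of it is S100a9, while the B cell, T and NK cell, eosinophil and erythroid sums are highest in LPS.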

How the data were processed

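The authors deposited 1 table of FPKM values per gene for 9 libraries. The submitters' processing notes name STAR, StringTie and FastQC (0.11.2 for FastQC, no version for the others) and the build hg38, whereas the gene IDs are mouse IDs. Libraries were strand-specific TruSeq libraries run on a NovaSeq, per the labels' protocols. No coordinates of the files were used. FPKM is relative within a library, so abundant transcripts lower all others, and depth in counts is unknown. A value listed as 0 may be an estimate that failed.

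Values were compared with limma 3.58.1 in R 4.3.3 on log2(FPKM + 1), in a single two-sided fit of the 9 libraries with a group term, moderated by eBayes with a mean trend, and Benjamini-Hochberg adjustment over 11721 genes. The pseudocount of 1 understates changes of weakly expressed genes. The members, their lists and their order by role were chosen with earlier results of these data known. All 37 members are reported. Of the regulators and sorting genes Gata6, Ccr2, Csf1r and Itgam were named whatever their values, with the 2 regulators of smallest adjusted p with ethanol, and the MHC class II genes as a group after their values were seen. Marker lists are given by their sums, and those not described in the report stand at the end.

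Shared windows are the share of 50-base windows of a member's longest GENCODE M21 transcript found in transcripts of another gene. The test was tried on simulated data first. Alternatives were a pseudocount of 0.1 or 5, testing all genes above 0 or those reaching 5 FPKM, TPM and median-ratio scaling (size factors over genes above 1 FPKM in every library), the replicate number as a block and leaving out each library. Python 3.11.15, pandas 2.3.3, numpy 2.4.6, biopython 1.88 and matplotlib 3.10.9 were used.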

Additional observations from a re-analysis of the deposited data

How the results depend on the processing

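Leaving out 1 library at a time kept every count of called members near its value with all libraries. In LPS+EtOH against LPS, the large list had 5 higher and 12 lower genes in each case, and the small list 2 higher and 4 to 5 lower. In LPS+CPZ against LPS these ranges were 4 to 5 higher and 11 to 12 lower for the large list, and 2 higher and 4 to 5 lower for the small list. In LPS+CPZ against LPS+EtOH they were 8 higher and 3 lower, and 4 to 5 higher and 2 lower. The difference of the list medians ranged from -0.30 to -0.14 in LPS+EtOH against LPS, from -0.28 to 0.04 in LPS+CPZ against LPS and from -0.18 to 0.03 in LPS+CPZ against LPS+EtOH, where it was -0.89 with a pseudocount of 0.1.

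The filter moved the small list: 7 genes were lower in LPS+EtOH against LPS when every gene above 0 was tested, since genes under 1 FPKM then entered, and 2 under 5 FPKM, with 3 lower in LPS+CPZ against LPS under 5 FPKM. Median-ratio scaling gave 5 lower large genes in LPS+CPZ against LPS+EtOH. No direction of a called member turned. Uncalled values that changed sign were Itgax in LPS+EtOH against LPS as TPM (-0.08) and without LPS+EtOH replicate 3 (-0.07) or LPS replicate 3 (-0.29; highest 0.19), Plac8 there under median-ratio scaling (0.17), and Pf4 in LPS+CPZ against LPS without LPS+CPZ replicate 3 (-0.04; highest 0.44). In LPS+CPZ against LPS+EtOH they were Adgre1 as TPM (0.03) and without 1 of 3 libraries (0.04 to 0.07), Vsig4 (-0.02) and F10 (-0.30) under median-ratio scaling, and, without single libraries, Vsig4 (-0.01 to 0.05), Selp (-0.17 to 0.06), Alox15 (-0.06 to 0.23), Plac8 (-0.20 to 0.16) and Lyz2 (-0.33 to 0.14). The cause of these changes was not tested. A pseudocount of 5 shrank the low members, Timd4 to -1.31 and Alox15 to -1.25 in LPS+EtOH against LPS.

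With the replicate number as a block the large list had 5 higher and 12 lower genes in LPS+EtOH against LPS, and Plac8 there (-0.48) and Chil3 in LPS+CPZ against LPS (-0.92) were called as well. Same-numbered libraries of different groups correlated at -0.006 to 0.26 in their deviations from the group means. Libraries with different numbers correlated at -0.204 to 0.127. The best match had the same number in 10 of 18 cases. These values do not settle whether same-numbered libraries share a source. The main fit did not take the numbers as pairs, and the block fit above did.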

Other observations

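Within groups the members did not spread evenly over the libraries. In LPS+CPZ, replicate 3 held the highest value for 20 of the 36 members above 0, whereas it held the highest value of the group for 28.7% of all tested genes. In LPS, replicate 1 held the highest value for 20 of 37 members and for 24.7% of all tested genes, and in LPS+EtOH, replicate 2 did so for 17 of 34 members and 23.8% of tested genes. Prg4, Retnla, Pf4, Lyz1, Lyz2 and Ednrb were all highest in replicate 3 of LPS+CPZ. These members were picked after their values were seen, and the pattern was not tested.

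The remaining marker lists are given as sums. T and NK cell markers summed to 12.5 to 23.1 FPKM in LPS+CPZ, 1.07 to 2.42 in LPS+EtOH and 56.3 to 74.2 in LPS. Mast cell markers summed to 13.9 to 36.2 FPKM in LPS+CPZ, 23.2 to 61.1 in LPS+EtOH and 50.1 to 91.2 in LPS. Eosinophil markers summed to 0.245 to 0.801 FPKM in LPS+CPZ, 0.277 to 0.569 in LPS+EtOH and 3.50 to 4.23 in LPS, with Epx listed at 0 in every library. Erythroid markers summed to 153 to 349 FPKM in LPS+CPZ, 608 to 747 in LPS+EtOH and 34791 to 107458 in LPS. Monocyte markers other than Ly6c2, a list that bears on that member, summed to 109 to 168 FPKM in LPS+CPZ, 554 to 732 in LPS+EtOH and 169 to 227 in LPS. Most of the sum in LPS+EtOH was Hp, at 539 to 718 FPKM. Of the 4 tested, 1 was higher and 2 were lower in LPS+EtOH than in LPS, against 19.0% and 64.6% of all tested genes.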
